A study of Saccharomyces cerevisiae with 6 samples.

Results

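The genes of 2 of the SMC complexes of budding yeast, condensin and the Smc5/6 complex, were followed in RNA-seq of *not4Δ* cells that expressed either the mutant Not4RRM or wild-type Not4 (Not4WT). The 10 genes were taken by their systematic names from the 5913 genes of the table, by their place in the complexes and not by a threshold on their values. They are the 5 condensin genes *SMC2* (YFR031C), *SMC4* (YLR086W), *YCS4* (YLR272C), *YCG1* (YDR325W) and *BRN1* (YBL097W), and the Smc5/6 genes *SMC5* (YOL034W), *SMC6* (YLR383W), *NSE1* (YLR007W), *NSE3* (YDR288W) and *NSE4* (YDL105W). Not4 is a ubiquitin ligase subunit of the Ccr4-Not complex, and the comparison asks how its RNA recognition motif and the zinc finger beside it bear on mRNA levels. There were 3 cultures with Not4RRM and 3 with Not4WT. Not4RRM carries the substitutions G167A, F202A and C244A, where positions are counted along the Not4 protein. Both proteins carried a FLAG tag and were driven by the *ADH1* promoter from a *CEN* plasmid marked with *URA3*, so neither group had Not4 under its own promoter. The host in both groups was the MATa strain BY4741 (*his3Δ1 leu2Δ0 met15Δ0 ura3Δ0*) with chromosomal *NOT4* replaced by KANMX, grown in synthetic medium without uracil, and no step to synchronise the cells is described.

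SMC complexes are rings made of a pair of long coiled-coil ATPases joined at their heads by a kleisin subunit. Condensin compacts and resolves chromosomes for mitosis, and in budding yeast it also acts at the ribosomal DNA repeats. The Smc5/6 complex works in DNA repair by recombination and in the resolution of joined sister DNA, and it carries a SUMO ligase. In condensin Smc2 and Smc4 are the ATPases, Brn1 is the kleisin, and Ycs4 and Ycg1 are the HEAT-repeat subunits that bind it. In the Smc5/6 complex Smc5 and Smc6 are the ATPases, Nse4 is the kleisin, and Nse1 and Nse3 form a module with it that sits at the heads.

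The ATPase pairs can be told from the other members by their sequence. The Walker A motif, which holds the phosphates of ATP, is shown because it separates the genes that encode a ring ATPase from those that encode its partners. The 4 stretches below are the coding strand of R64 (RefSeq), each 42 bases long, with the 8 codons of the motif in capitals.
SMC2: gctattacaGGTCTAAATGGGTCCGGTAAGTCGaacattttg
SMC4: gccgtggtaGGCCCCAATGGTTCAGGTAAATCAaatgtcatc
SMC5: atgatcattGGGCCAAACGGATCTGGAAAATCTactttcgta
SMC6: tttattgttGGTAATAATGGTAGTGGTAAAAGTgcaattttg
They lie at chrVI:219981-220022 on the minus strand (*SMC2*), chrXII:302786-302827 on the plus strand (*SMC4*), chrXV:260118-260159 on the plus strand (*SMC5*) and chrXII:885603-885644 on the plus strand (*SMC6*). Each of these 4 genes had 1 match to the motif in its reading frame, and the 6 members that encode no ring ATPase had 0. Residues 32 to 39 of Smc2 and 69 to 76 of Smc5 carry it, against residues 185 to 192 of Smc4 and 109 to 116 of Smc6, which have longer stretches before the motif.

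The members also differ in the letters upstream of their start codons. The 500 bases before each start codon were searched on both strands for the core of the forkhead site (GTAAACA, bound by Fkh1 and Fkh2 at genes of S phase and of mitosis), for the MCB (ACGCGT, bound by MBF at genes of the G1/S transition) and for the SCB (CACGAAA or CGCGAAA, bound by SBF at genes of the same transition). All 5 condensin genes held the forkhead core, and 0 of the 5 Smc5/6 genes did. Of all 5905 genes with such a window, 613 held it (10.4%). Among the related lists described below, 5 of 9 condensin partners, 4 of 9 cohesin genes and 3 of 8 G2/M genes held it. So did 1 of 12 Smc5/6 partners, 1 of 8 G1/S genes, 0 of 3 other Smc5/6 subunits and 0 of 3 genes of the Mre11 complex. The 5 sites are shown because they are a feature common to the condensin genes, though not particular to them, and not used to choose them. They are given on the strand of the gene, with the core or its reverse complement in capitals.
SMC2: atcaacaacaGTAAACAcacggtgcag
SMC4: gaaagtaaacTGTTTACaataatcacg
YCS4: cgaccatttaGTAAACAaagaaaataa
YCG1: ccttcgtgttTGTTTACctttttagct
BRN1: gcgctttcttTGTTTACattttagtga
They lie 67 bases (*SMC2*, chrVI:220164-220190), 130 bases (*SMC4*, chrXII:302096-302122), 105 bases (*YCS4*, chrXII:687298-687324), 89 bases (*YCG1*, chrIV:1117020-1117046) and 140 bases (*BRN1*, chrII:40674-40700) before the start codon, within the gap to the next gene in each case. A match is a run of letters and was not tested as a binding site.

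The MCB was found before *SMC2*, *SMC6* and *NSE4*, and in 322 of the 5905 windows (5.5%). The 3 sites are shown because MCB letters stand before genes of both complexes, with the MCB in capitals on the strand of the gene.
SMC2: tttctgccttACGCGTttatagtgat
SMC6: cttgccaaaaACGCGTcgcgtatact
NSE4: gaaacgcgcaACGCGTtaacagaaaa
These stretches are at chrVI:220235-220260, chrXII:885105-885130 and chrIV:272271-272296. The SCB was found before *SMC4*, *YCS4*, *BRN1* and *SMC5*, and in 736 windows (12.5%). None of the 3 motifs was found before *NSE1* and *NSE3*. No 2 of the sites found before a member overlap. The tested genes that hold a motif had a median log2 fold change of 0.04 (forkhead core, 605 genes), -0.07 (MCB, 318 genes) and -0.04 (SCB, 733 genes), against 0.05 over all tested genes.

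Each member has 1 coding exon in R64, and no annotated gene overlaps any of them. *SMC2* is on chromosome VI from 216594 to 220106 and *BRN1* on chromosome II from 40831 to 43095. *SMC4* (302243 to 306499), *YCS4* (683672 to 687202), *SMC6* (885288 to 888632) and *NSE1* (164392 to 165402) are on chromosome XII, while *YCG1* (1117126 to 1120233), *NSE3* (1037195 to 1038106) and *NSE4* (272389 to 273597) are on chromosome IV and *SMC5* (259923 to 263204) is on chromosome XV. Coding lengths run from 912 bp in *NSE3* to 4257 bp in *SMC4*, and 6 of the 10 are at least 3000 bp long.

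The values are read counts that the authors brought to the coverage of their shallowest sample and rounded, called scaled counts here, and their totals were 14881818 to 14881884 per sample. The depth before scaling is unknown. *NOT4*, listed as MOT2 and carried by the plasmid, had 33371, 40410 and 40314 scaled counts with Not4RRM, against 12357, 13057 and 8966 with Not4WT, and *URA3* had 9251, 4506 and 3990 against 1047, 1270 and 1056, so the groups also differ in the transcripts of the plasmid. Not4RRM replicate 1 stood apart from its group, with correlations of log2 values of 0.947 to 0.952 to the other replicates. Those replicates correlated at 0.993 with each other, while Not4WT replicates correlated at 0.968 to 0.984. Between the groups, Not4RRM replicate 1 correlated at 0.963, 0.951 and 0.959 with Not4WT replicates 1, 2 and 3. The same values were 0.969, 0.949 and 0.983 for Not4RRM replicate 2, and 0.964, 0.938 and 0.979 for replicate 3. Some samples were thus closer to a sample of the other group than to one of their own. Of the MATa markers, the a-factor gene *MFA1* had 12269, 611 and 660 scaled counts with Not4RRM, against 8479, 5482 and 2660 with Not4WT, and *MFA2* had 1162, 1268 and 1443 against 2470, 483 and 2211. The 5 MATa markers summed to 11258 to 33496 against 20922 to 25736. Those of MATalpha cells, which the strain should not hold, summed to 334 to 561 against 455 to 502 over 4 genes, with *SAG1* at 258, 219 and 208 against 324, 326 and 332 and *MF(ALPHA)2* at 181, 36 and 38 against 55, 33 and 40.

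None of the 10 members passed the test between Not4RRM and Not4WT. For the test the scaled counts were divided by a TMM factor, which removes differences in composition between samples, and log2(value + 1) was fitted with limma. A gene was called at a Benjamini-Hochberg adjusted p under 0.05, taken over the 5805 tested genes, with a change of at least 1.5-fold. All 10 members passed the filter on low values. Of all tested genes 0 were called (0.0%), and 923 had an unadjusted p under 0.05 (15.9%), whereas 0 of the 10 members did. The adjusted p of the members from limma ran from 0.398 to 0.942. The median log2 fold change, Not4RRM minus Not4WT, was -0.15 over the condensin genes and 0.08 over the Smc5/6 genes, against 0.05 over all tested genes. Without Not4RRM replicate 1 the condensin median was -0.015, and over the samples left out in turn it ran from -0.249 to -0.015, with -0.249 without Not4RRM replicate 3.

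The ATPase genes of condensin were the members whose groups did not overlap on the deposited scale. *SMC2* had 277, 340 and 351 scaled counts with Not4RRM, against 371, 379 and 412 with Not4WT (322.7 ± 39.9 against 387.3 ± 21.7, SD, n = 3 each). *SMC4* had 192, 283 and 288 with Not4RRM, against 330, 296 and 310 with Not4WT (254.3 ± 54.0 against 312.0 ± 17.1, SD, n = 3 each). For both genes each Not4RRM sample was below each Not4WT sample, and Not4RRM replicate 1 was the lowest. Such a split was common in the table, since 18.7% of the tested genes were lower without overlap on this scale and 7.89% were higher without overlap. After division by the TMM factors both pairs of groups overlapped, the log2 fold change was -0.15 ± 0.17 (SE) for *SMC2* and -0.19 ± 0.21 (SE) for *SMC4*, and the limma adjusted p was 0.680 and 0.650. Without Not4RRM replicate 1 the log2 fold changes were -0.05 and -0.015.

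Both HEAT-repeat genes overlapped between the groups but differed in which sample stood out. *YCG1*, which encodes the subunit reported to be limiting for condensin in budding yeast, had 113, 182 and 187 scaled counts with Not4RRM, against 214, 175 and 208 with Not4WT. *YCS4* had 192, 143 and 131 with Not4RRM, against 182, 170 and 183 with Not4WT. Not4RRM replicate 1 was thus the lowest sample for *YCG1* and the highest for *YCS4*. The log2 fold change was -0.21 ± 0.25 (SE, limma adjusted p = 0.671) for *YCG1* and -0.09 ± 0.19 (SE, adjusted p = 0.830) for *YCS4*. Without Not4RRM replicate 1 these values were 0.007 and -0.27.

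*BRN1*, the gene of the kleisin, was the only condensin gene with a higher mean in Not4RRM cells. It had 81, 104 and 91 scaled counts with Not4RRM, against 95, 54 and 71 with Not4WT (92.0 ± 11.5 against 73.3 ± 20.6, SD, n = 3 each). The groups overlapped through Not4WT replicate 1, and the limma log2 fold change was 0.48 ± 0.26 (SE, adjusted p = 0.398), which ran from 0.25 to 0.68 over the samples left out in turn. The 5 condensin genes together summed to 855, 1052 and 1048 scaled counts with Not4RRM, against 1192, 1074 and 1184 with Not4WT, and to 880, 1081 and 1128 against 1146, 991 and 1173 after TMM scaling. The sums did not overlap on the deposited scale and did overlap after TMM scaling.

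The genes of the Smc5/6 ATPases overlapped between the groups. *SMC5* had 131, 148 and 120 scaled counts with Not4RRM, against 128, 145 and 137 with Not4WT. *SMC6* had 132, 172 and 147 with Not4RRM, against 141, 175 and 164 with Not4WT. The Not4RRM values spanned the whole Not4WT range for *SMC5*, and the lowest sample for *SMC6* was Not4RRM replicate 1 on the deposited scale. The limma log2 fold changes were 0.08 ± 0.17 (SE, adjusted p = 0.829) and 0.03 ± 0.18 (SE, adjusted p = 0.942).

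The 3 genes of the Nse1-Nse3-Nse4 module varied more between replicates than the ATPase genes of the complex. *NSE1* had 269, 235 and 176 scaled counts with Not4RRM, against 179, 202 and 286 with Not4WT. *NSE3* had 65, 89 and 110 with Not4RRM, against 47, 49 and 106 with Not4WT. *NSE4* had 469, 377 and 296 with Not4RRM, against 523, 410 and 400 with Not4WT. The groups overlapped for all 3 genes, and the highest *NSE1* value was that of Not4WT replicate 3. *NSE3* had a log2 fold change of 0.58 ± 0.38 (SE, limma adjusted p = 0.465), which ran from 0.36 without Not4RRM replicate 3 to 0.95 without Not4WT replicate 3. Its coefficient of variation was 25.6% in Not4RRM samples and 49.8% in Not4WT samples, the second the widest of the members in that group. *NSE1* was at 0.16 ± 0.24 (SE, adjusted p = 0.758) and *NSE4* at -0.11 ± 0.21 (SE, adjusted p = 0.805). The Smc5/6 genes summed to 1066, 1021 and 849 scaled counts with Not4RRM, against 1018, 981 and 1093 with Not4WT, which overlap.

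**Figure D1:**
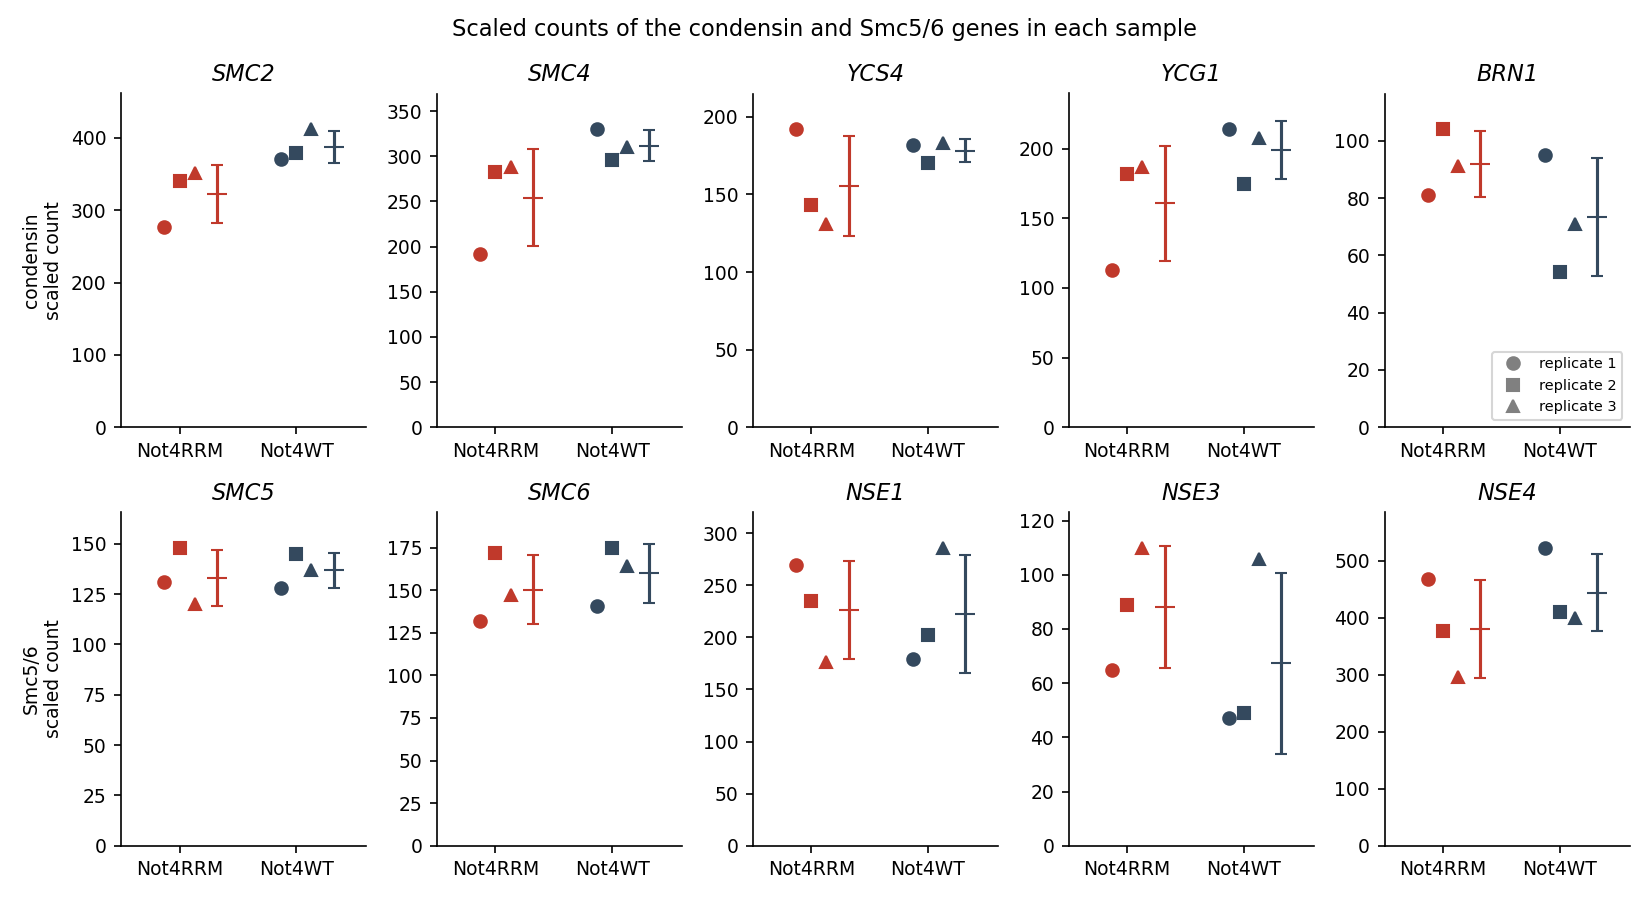
Scaled counts (y axis, from 0) of each member in the 3 Not4RRM samples and the 3 Not4WT samples, with the condensin genes above and the Smc5/6 genes below. Symbols stand for replicates and the bars for the mean and SD, and the groups are apart for *SMC2* and *SMC4* only.

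The precision of these values can be read from the 95% intervals of the limma fit. For 4 members, *SMC2*, *YCS4*, *SMC5* and *SMC6*, the interval of the fold lay between 0.667 and 1.5, so that a 1.5-fold change in either direction was outside it. The interval was 0.687 to 1.19 for *SMC2*, 0.690 to 1.27 for *YCS4*, 0.810 to 1.38 for *SMC5* and 0.764 to 1.37 for *SMC6*. For *BRN1* (0.913 to 2.12) and *NSE3* (0.809 to 2.75) a change of more than 2-fold up lay within the interval. A fall of 1.5-fold did for *YCG1* (0.581 to 1.28), *SMC4* (0.627 to 1.22) and *NSE4* (0.663 to 1.29). For *NSE1* (0.75 to 1.65) a rise of 1.5-fold did. These intervals are for single genes and take in the samples as they are, Not4RRM replicate 1 included.

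**Figure D2:**
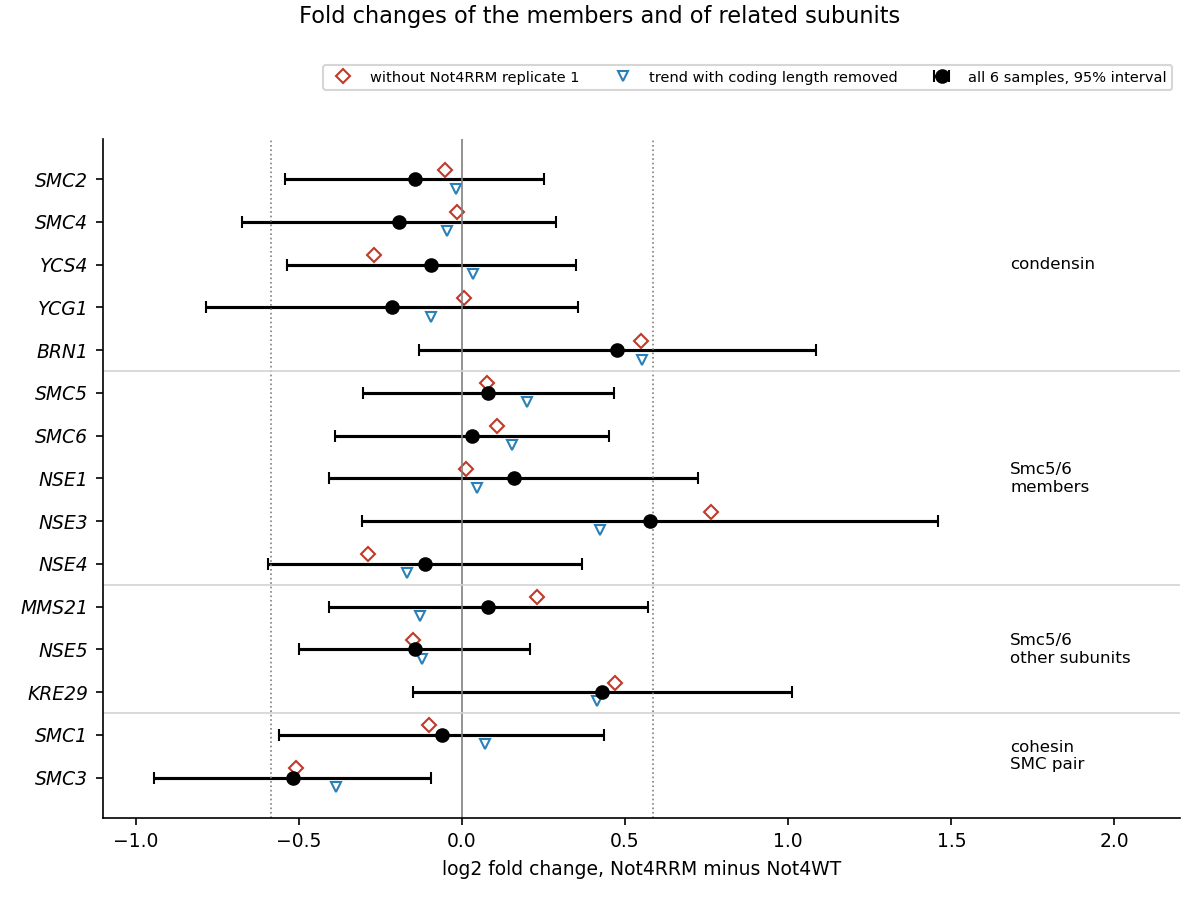
Log2 fold change, Not4RRM minus Not4WT (x axis), of the 10 members, of the other Smc5/6 subunits and of the cohesin SMC pair. Black points and bars are the fit to all 6 samples with its 95% interval, red diamonds the fit without Not4RRM replicate 1 and blue triangles the fit after the trend with coding length was removed, and dotted lines mark 1.5-fold; the intervals of all 10 members include 0 and that of *SMC3* does not.

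The steps of the study were an unequal-variance test on the deposited values at p under 0.05, with a 1.5-fold change. Their Benjamini-Hochberg adjustment was taken only over the genes that had passed both, not over all tested genes as for limma. Calls by those steps and calls by limma are therefore not at a like threshold. The study's steps called 225 of 5913 genes lower (3.81%) and 130 higher (2.2%), and among them 0 of the 10 members. No member had an unadjusted p under 0.05 by those steps or by limma-voom. Without Not4RRM replicate 1 limma called 372 of 5793 genes (6.42%) and again 0 members. After TMM scaling 12.2% of the tested genes were lower without overlap and 12.4% were higher without overlap, against 0 members in either direction. In none of the 25 fits that were made was a member called. Genes of any kind were called only by the study's steps (355), without Not4RRM replicate 1 (372) and in 2 fits described below. Those fits removed a trend with coding length, with all samples (4) or without Not4RRM replicate 1 (429). Every other fit called 0 genes, so it could not have called a member.

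Choice of scaling moved the members as a block. With equal totals in place of TMM the median of all tested genes moved by -0.12, to -0.075, and that of the condensin genes was then -0.27 and that of the Smc5/6 genes -0.04. Relative to the median of all genes in the same fit the condensin genes were thus lower by about the same amount with either scaling. That could not come out otherwise, because a change of scaling shifts all genes by nearly the same amount. On the deposited scale 7 of the 10 members had a lower mean with Not4RRM, and after TMM scaling 5 of the 10 had a negative log2 fold change. Of all 5805 tested genes, 3320 had a negative log2 fold change with equal totals and 2620 with TMM.

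Long genes were lower in Not4RRM replicate 1, and most members are long. Across 5801 tested genes the log2 fold change was lower the longer the coding sequence (Spearman rho -0.41 across genes, which are not independent replicates), and without Not4RRM replicate 1 rho was -0.18. The 523 tested genes of at least 3000 bp had a median log2 difference from the Not4WT mean of -0.53 in Not4RRM replicate 1, of 0.025 in replicate 2 and of -0.01 in replicate 3. For the 6 members of that length the same medians were -0.27, -0.03 and 0.04. The median log2 fold change was -0.12 for these 6 members and -0.16 for all genes of that length. After the trend with length was removed from each sample, the medians were -0.02 for the condensin genes, 0.15 for the Smc5/6 genes and -0.02 for all tested genes. The part of length or of that library in the values of single members was not tested beyond these fits.

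**Figure D3:**
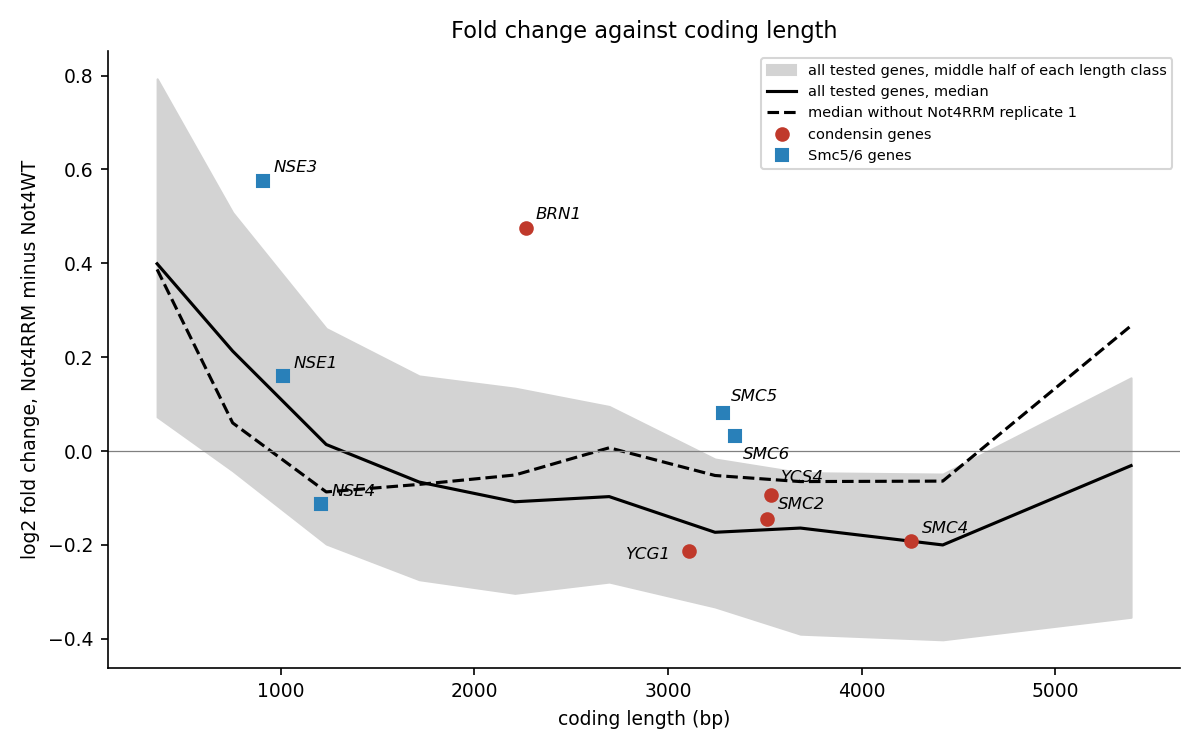
Log2 fold change, Not4RRM minus Not4WT (y axis), against coding length in bp (x axis). The black line is the median of all tested genes by length class, the grey band their lower to upper quartile and the dashed line the median without Not4RRM replicate 1; *SMC2*, *SMC4*, *YCS4* and *YCG1* lie within the band, as do *NSE1* and *NSE4*, and *BRN1*, *SMC5*, *SMC6* and *NSE3* lie above it.

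Levels between members were compared as scaled counts per kb of coding sequence. The 10 members were all below the median tested gene, which had 367 scaled counts per kb with Not4RRM and 379 with Not4WT. In condensin the order of levels was *SMC2*, *SMC4*, *YCG1*, *YCS4* and *BRN1* in both groups. *SMC2* had 91.9 ± 11.4 scaled counts per kb with Not4RRM and 110 ± 6.19 with Not4WT (SD, n = 3 each), and *BRN1* had 40.6 ± 5.09 and 32.4 ± 9.10. In Not4WT samples no neighbours in this order overlapped in range. In Not4RRM samples only *SMC2* and *SMC4* were apart, while *SMC4*, *YCG1*, *YCS4* and *BRN1* each overlapped with the next gene. Whether the spacing differs between the groups was not tested.

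Among the 5 Smc5/6 members the kleisin gene had the highest level per kb and the ATPase genes the lowest, while in condensin the kleisin gene was the lowest. *NSE4* had 315 ± 71.6 scaled counts per kb with Not4RRM and 368 ± 56.5 with Not4WT, and *NSE1* had 224 ± 46.5 and 220 ± 55.7 (SD, n = 3 each). *NSE3* followed with 96.5 ± 24.7 and 73.8 ± 36.7, then *SMC6* with 44.9 ± 6.04 and 47.8 ± 5.19 and *SMC5* with 40.5 ± 4.30 and 41.6 ± 2.59. *SMC6* and *SMC5* overlapped in both groups. *NSE4* and *NSE1* overlapped with Not4RRM, and *NSE3* and *SMC6* with Not4WT. Of the subunits outside the members, *NSE5* had 206 ± 14.6 with Not4RRM and 248 ± 4.41 with Not4WT, and *MMS21* had 115 ± 21.3 and 117 ± 3.8. *KRE29* was lower than *SMC5*, at 33.2 ± 2.98 with Not4RRM and 27.0 ± 5.75 with Not4WT. These levels were divided by coding length and not corrected further. The part of length in their order was not tested.

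**Figure D4:**
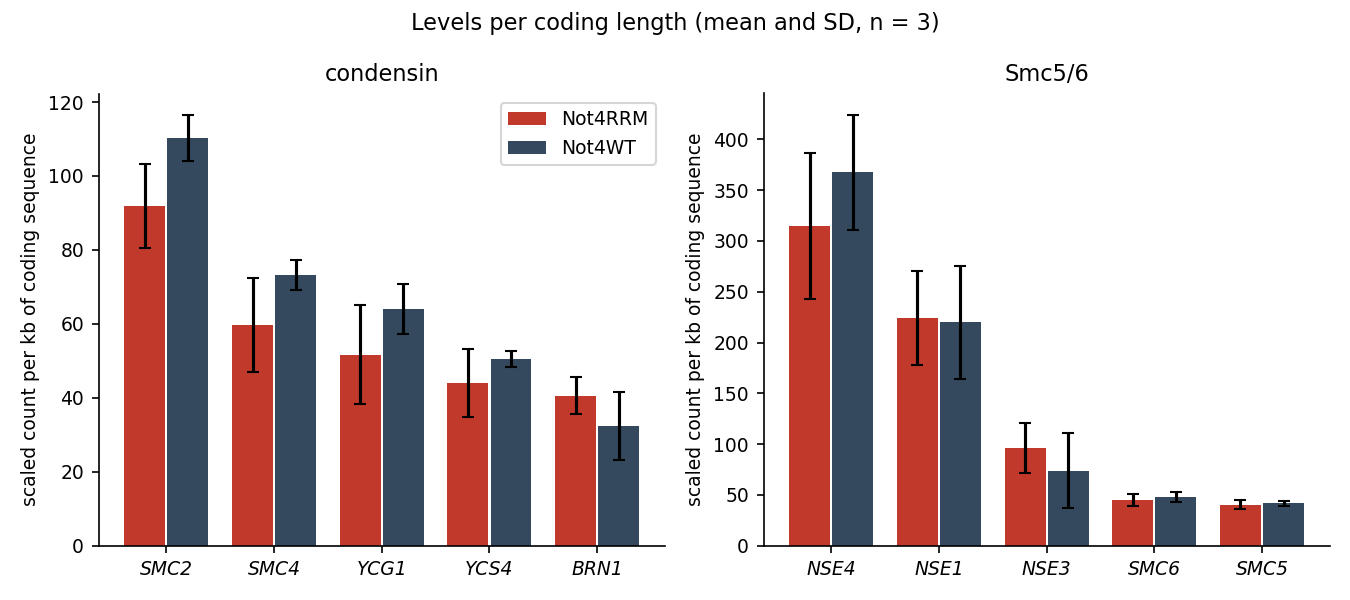
Scaled counts per kb of coding sequence (y axis, from 0) of the condensin genes (left) and of the Smc5/6 genes (right), as mean and SD of 3 samples, with Not4RRM in red and Not4WT in blue-grey. The order of the genes is the same in both groups, and the y axes differ in range.

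Ratios within a sample do not depend on scaling, and 8 were compared, each condensin gene to *SMC2* and each Smc5/6 gene to *SMC5*. They were not corrected for the trend with coding length. *BRN1* has 2265 bp against 3513 bp for *SMC2*, and *NSE1*, *NSE3* and *NSE4* are shorter than *SMC5*. The ratio of *BRN1* to *SMC2* was 0.292, 0.306 and 0.259 with Not4RRM, against 0.256, 0.143 and 0.172 with Not4WT. It was the only ratio whose groups did not overlap, with the lowest Not4RRM sample just above the highest Not4WT sample. The difference of 0.63 on the log2 scale had a two-sided exact permutation p of 0.1, which is the smallest that 3 samples against 3 allow, and 0.8 after adjustment over the 8 ratios. *SMC4* to *SMC2* was 0.693, 0.832 and 0.821 with Not4RRM, against 0.890, 0.781 and 0.752 with Not4WT, and *SMC6* to *SMC5* was 1.01, 1.16 and 1.23 against 1.10, 1.21 and 1.20. Both ATPase pairs overlapped between the groups, with an exact permutation p of 0.7 for each.

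The other subunits of the Smc5/6 complex gave the same kind of values. *MMS21*, which encodes the SUMO ligase, had 73, 104 and 101 scaled counts with Not4RRM, against 97, 95 and 91 with Not4WT, and a log2 fold change of 0.08 ± 0.21 (SE, limma adjusted p = 0.864). *NSE5* had 339, 323 and 371 against 412, 409 and 423, which is lower without overlap on the deposited scale only, and its log2 fold change was -0.15 ± 0.15 (SE, adjusted p = 0.642). *KRE29*, whose product pairs with Nse5, had 43, 51 and 45 against 46, 37 and 30, with groups that overlapped on the deposited scale and not after TMM scaling, and a log2 fold change of 0.43 ± 0.25 (SE, adjusted p = 0.423).

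Cohesin is the SMC complex that holds sister chromatids together. *SMC3* had 119, 111 and 141 scaled counts with Not4RRM, against 198, 181 and 199 with Not4WT, with a log2 fold change of -0.52 ± 0.18 (SE, limma adjusted p = 0.248), whereas *SMC1*, its ATPase partner, had 576, 530 and 561 against 802, 492 and 640 and was at -0.06 ± 0.22 (SE, adjusted p = 0.901). Of the 9 genes of cohesin, its loader and its regulators, 7 had a negative log2 fold change, and the median of the 9 was -0.37. At an unadjusted limma p under 0.05 were 3 of them, all lower. Of the 5805 tested genes 352 were lower and 571 higher at that p, 15.9% in either direction. The lowest of the 9 cohesin genes was *PDS5*, a regulator of the ring, at -1.07 (adjusted p = 0.112), and the highest *SCC2*, the loader, at 0.58 (adjusted p = 0.475). Limma called no gene of this list with all 6 samples, and the study's steps called 3, *IRR1*, *PDS5* and *SMC3*, all lower, with *IRR1* named after its values were seen. The study itself had listed these 3 genes as lower, under its cohesin complex categories, so these calls repeat a published result from the same values. Without Not4RRM replicate 1 *PDS5* was called, at -0.91 with a limma adjusted p of 0.0269. A difference in response between cohesin and the members was not tested.

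The proteins that work with condensin and with the Smc5/6 complex gave mixed values. Of 9 condensin partners, 5 had a positive and 4 a negative log2 fold change, with a median of 0.007. *TOP2*, the topoisomerase that unlinks sister DNA, had 270, 420 and 432 scaled counts with Not4RRM, against 511, 510 and 564 with Not4WT, without overlap, and a log2 fold change of -0.40 (limma adjusted p = 0.402). *CDC5*, the polo kinase that phosphorylates condensin in mitosis, had 605, 696 and 716 against 408, 427 and 451, also without overlap, and a log2 fold change of 0.77 (adjusted p = 0.122), which was 0.83 (adjusted p = 0.0257) without Not4RRM replicate 1, and it was called by the study's steps. Of 12 Smc5/6 partners in SUMO transfer and recombination, 5 were positive and 7 negative, with a median of -0.08. The highest was *RMI1*, of the Sgs1-Top3 helicase complex, at 0.93 (limma adjusted p = 0.169), which the study's steps called.

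Genes that mark phases of the cell cycle had fold changes of opposite sign by phase. These lists were chosen with earlier results of these data known. The study had reported *RNR1* and *POL1*, both of the G1/S list, as lower and *CLB1* as higher. The split by phase is therefore not an independent result. All 8 G1/S genes had a negative log2 fold change, with a median of -0.56, from -1.29 for *RNR1*, the large subunit of ribonucleotide reductase (limma adjusted p = 0.0787), to -0.24 for *CLN1*, a G1 cyclin (adjusted p = 0.510). They summed to 15350 to 17244 scaled counts with Not4RRM and to 25392 to 30515 with Not4WT. All 8 G2/M genes, *CDC5* among them, were above 0 on the log2 scale, their median being 0.54, from 0.38 for *CLB2* (adjusted p = 0.368) to 1.05 for *CLB1* (1.046, adjusted p = 0.131), both mitotic cyclins. They summed to 4730 to 7627 with Not4RRM and to 4597 to 5191 with Not4WT. With all 6 samples limma called none of these 16 genes. At an unadjusted limma p under 0.05 were 6 G1/S genes and 4 G2/M genes, against 15.9% of all tested genes in either direction. The study's steps called 5 G1/S genes, *RNR1* among them, and the G2/M genes *CDC5* and *CLB1*, and in limma 3 G1/S genes and 5 G2/M genes were called without Not4RRM replicate 1. In RNA of whole cultures, fewer cells in a phase and less RNA per cell cannot be told apart. The part of the phase of the cells in the members' values was not tested.

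**Figure D5:**
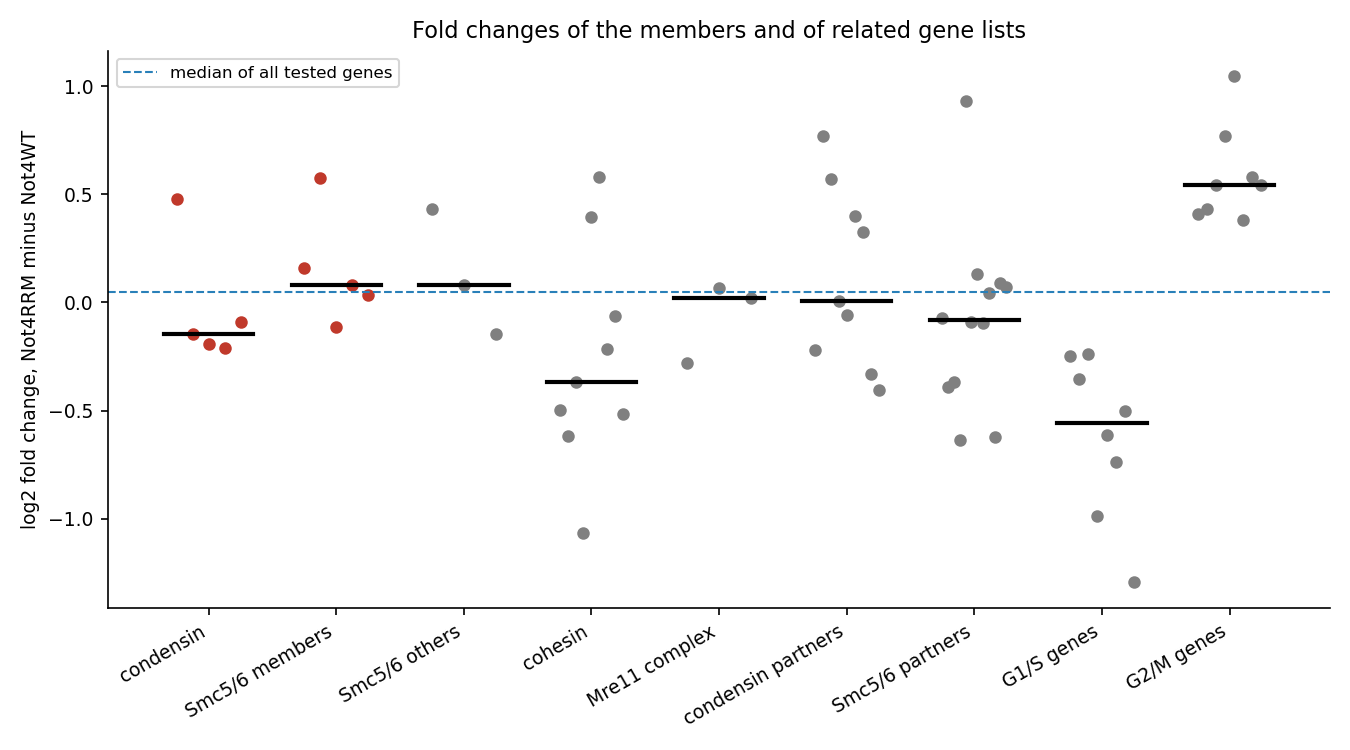
Log2 fold change, Not4RRM minus Not4WT (y axis), of each gene (points) of the members (red) and of related lists (grey), with black lines at the list medians and a dashed line at the median of all tested genes, 0.05. The G1/S genes all lie below 0 and the G2/M genes all above, while the members lie between -0.21 and 0.58.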

How the data were processed

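RNA-seq was done on poly(A) RNA of 3 Not4RRM and 3 Not4WT cultures on an Ion Torrent Proton. The library kit named in the study's methods differs from that in the labels. The authors trimmed reads for quality, mapped them to S288C transcripts with STAR (build R64 per the submitters' processing notes, aligner version not given in the sources used here) and counted them by transcript. They then scaled the samples to the shallowest one, and the deposited values, a score and not raw counts, are the results as whole numbers. The study's methods describe triplicate cultures, and p-values measure the spread between them. No counting error is given, since the depth before scaling is unknown. Whether reads were counted by strand is not given in the sources used here.

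The table lists 5913 genes, of which 5907 matched R64, and 1 row without a name was left out. The test took the 5805 genes that reached 10 in 3 or more samples and summed to 15 or more. TMM factors (trimming 30% of ratios and 5% of levels) were written out in code, and log2(value + 1) was fitted with limma 3.58.1 in R 4.3.3 (prior variance trended on mean level), so that fold changes of low genes are understated. Single ratios were tested with exact permutation tests written out in code, and their p-values were adjusted in scipy 1.17.1. Sequences and coordinates were read from R64 of RefSeq. The code was tested on simulated data.

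Alternatives were other scalings, pseudocounts of 0.5 and 10, other filters, limma-voom, a constant prior variance, the steps of the study, a replicate block, a loess (span 0.5) that took out the trend with coding length, the block and the loess in 1 fit, and leaving out every sample in turn. Leaving out each sample after removal of the length trend was added after the data were seen. The members and lists were chosen with earlier results of these data known. Genes named are the members, *MMS21*, *NSE5*, *KRE29*, *SMC1*, *SMC3*, *NOT4*, *URA3* and the lowest and highest gene of each list, of which 1 is not reported here, and the Mre11 complex is given in the closing section.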

Additional observations from a re-analysis of the deposited data

How the results depend on the processing

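No member was called in any of the 25 fits, most of which called no gene at all. Over the 24 alternatives the members gave 220 values of the same direction and 20 of the opposite direction, the largest of the latter at 0.21 (log2 fold change of *YCS4*). Some alternatives, such as the replicate block and the constant prior variance, cannot change a fold change. The tally is therefore no measure of how stable the directions are. The number of all genes called was 0 in the main test, 355 with the study's steps, 4 after the length trend was removed, and 0 to 372 when each sample was left out, the highest without Not4RRM replicate 1. With both (chosen after seeing the data) it was 0 to 429. The median of the condensin genes was -0.249 to -0.015 without each sample and -0.064 to 0.048 when the length trend was also removed. The median of the Smc5/6 genes was 0.014 to 0.113 without each sample and 0.053 to 0.225 when the length trend was also removed, the highest without Not4WT replicate 3. The cause was not tested.

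With equal totals the log2 fold change of *SMC5* was -0.042, with *SMC6* at -0.092, *MMS21* at -0.042, *RAD50* at -0.057 and *MFA2* at -0.10, and *MFA2* was at -0.009 with median of ratios scaling. The study's steps gave -0.039 for *SMC5*, -0.090 for *SMC6*, -0.026 for *MMS21*, -0.068 for *RAD50* and -0.42 for *MFA2*. With the length trend removed, with or without a replicate block, *YCS4* was at 0.034, *MMS21* at -0.13, *SMC1* at 0.070 and *MFA2* at -0.42. Leaving out each sample gave -0.38 to 0.007 for *YCG1*, -0.057 to 0.11 for *SMC6*, -0.29 to 0.016 for *NSE4*, -0.029 to 0.23 for *MMS21*, -0.27 to 0.11 for *SMC1*, -0.094 to 0.17 for *RAD50*, -0.77 to 0.44 for *MFA2* and -0.062 to 1.11 for *MF(ALPHA)2*. With the length trend also removed the ranges were -0.083 to 0.048 for *SMC2*, -0.30 to 0.21 (others above 0 at 0.046, 0.074 and 0.192) for *YCS4*, -0.11 (others below 0 at -0.006 and -0.011) to 0.25 for *NSE1*, -0.26 (others below 0 at -0.079, -0.124, -0.181 and -0.242) to 0.12 for *MMS21*, -0.14 to 0.24 (others above 0 at 0.098, 0.130 and 0.215) for *SMC1*, -0.88 to -0.12 for *MFA2* (with -0.259, -0.365, -0.425 and -0.481 between) and -0.49 to 0.68 for *MF(ALPHA)2*. The cause of these changes was not tested.

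Samples with the same replicate number deviated together with r of 0.07, -0.15 and 0.38, and not every sample correlated best with its own number, so the numbers were not taken as pairs. With a replicate block 0 genes were called, 902 had an unadjusted p under 0.05 against 923 without it. With 1 sample of each group per number the block cannot change a fold change, so the medians are those without it. With 3 samples per group and an unknown depth before scaling, a 1.5-fold change lay inside the 95% interval of 6 of the 10 members.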

Other observations

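Of the members, 5 have a divergent neighbour upstream, whose start codon faces theirs across the gap that holds both promoters. These neighbours were chosen by position. *NAM2*, which encodes the mitochondrial leucyl-tRNA synthetase and faces *SMC6* across 536 bp, had 238, 224 and 238 scaled counts with Not4RRM, against 332, 353 and 330 with Not4WT. Its groups did not overlap, and the log2 fold change was -0.41 ± 0.14 (SE, limma adjusted p = 0.248), beside 0.03 for *SMC6* itself. Such a split was common, since 18.7% of the tested genes were lower without overlap on the deposited scale and 12.2% after TMM scaling. The other neighbours had log2 fold changes of -0.11 (*ARP6*, facing *SMC4*), 0.19 (*UTP4*, facing *YCG1*), 0.02 (*SSK1*, facing *NSE1*) and 0.11 (*PHO2*, facing *NSE4*), with groups that overlapped. The difference between *NAM2* and *SMC6* was not tested.

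The Mre11 complex, which holds the SMC-like ATPase Rad50 and works at DNA breaks, was followed as a further relative. *MRE11* had 297, 332 and 248 scaled counts with Not4RRM, against 379, 391 and 385 with Not4WT, without overlap, and a log2 fold change of -0.28 (limma adjusted p = 0.408). *RAD50* had 209, 234 and 203 against 232, 186 and 259 and was at 0.07 (adjusted p = 0.880). Over the 3 genes of the complex the median was 0.02, and 0 were called.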
